A study of Mus musculus with 4 samples.

Results

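The Hox genes of 4 single-cell RNA libraries from mouse inner ear organoids are described here, gene by gene, by library and by cell type. Every row whose symbol is Hox, a cluster letter from a to d and a number was taken, which gave 39 of 27998 genes, namely 11 Hoxa, 10 Hoxb, 9 Hoxc and 9 Hoxd genes. Inner ear organoids are 3D cultures of mouse embryonic stem cells led towards otic tissue. The groups were R1/E wild-type organoids (WT) and R1/E-Tmprss3KO-GFPKI organoids (KO) at day 25 and at day 35, all of the derived strain 129X1x129S1. By its name the KO line lacks Tmprss3, a membrane serine protease tied to hearing loss, and carries a GFP knock-in. How many clones of it or how many organoids were pooled is not given in the sources used here. Each group is 1 library, so no difference between groups has a replicate check and none was tested. The 95% intervals below cover counting error alone.

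Unique molecular identifiers (UMIs) count captured RNA molecules. Cells were kept when they had 500 genes or more and no more than 10% of their UMIs from mitochondrial genes. That left 9768 cells of WT day 25, 11190 of KO day 25, 8166 of WT day 35 and 6729 of KO day 35, at a median of 6166, 6371, 3089 and 4420 UMIs per cell. The WT day 35 library was the shallowest. Of 35251 distinct barcodes among the kept cells, 600 occurred in more than 1 library. Tmprss3 itself had 18, 7, 8 and 5 UMIs in the same order of libraries. Where the disrupted part lies relative to the counted 3′ end is not given, so those counts check no label.

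Hox genes encode homeodomain transcription factors that mark position along the head-to-tail axis, and later along limbs and other outgrowths. Their order on the chromosome follows the order of their anterior limits: low-numbered (3′) genes reach into the hindbrain, middle ones into the neck and thorax, and the highest numbers lie in the lumbosacral trunk, tail and distal limb. Genes of equal number in the 4 clusters form a paralog group. Forebrain, midbrain and the jaw-forming first arch crest hold no Hox expression in the embryo, and the otic vesicle forms beside hindbrain that expresses low-numbered genes. Pbx and Meis proteins bind DNA together with Hox proteins.

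In the annotation of GRCm38, the mouse build the submitters name, the Hoxa cluster lay on the minus strand of chromosome 6. The others were chr11:96194316-96368256 for Hoxb, chr15:102921103-103036852 for Hoxc and chr2:74668310-74765142 for Hoxd, all 3 on the plus strand. An exon of 16 of the 39 genes overlapped another annotated gene, on the same strand for 9 and on the opposite strand for 10. Hoxd3 overlapped Hoxd4 and Hoxc10 overlapped Hoxc5 on the same strand, so counts could be split or lost between these partners. Hoxd10 and Hoxd11 both overlapped Gm28309 on the same strand. Among opposite-strand partners were Hoxaas3 for Hoxa7 and Hoxa3 and Hoxb5os for Hoxb5. The counting was not stated to use strand, and reads of such pairs cannot then be told apart.

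RefSeq promoter windows were found for 22 of the 39 genes (24 windows, GRCm38.p6). The 250 bases upstream of the start are shown for 4 genes, Hoxa2 and Hoxb8 for neural cells, Hoxd8 for muscle and Hoxa10 for mesenchyme. Hoxb8 had 133, 34, 0 and 10 UMIs in neural cells of WT day 25, KO day 25, WT day 35 and KO day 35. All kept cells of these libraries held 211, 103, 8 and 48. The tissue patterns of Hoxa2, Hoxd8 and Hoxa10 are described further on. Capitals mark, on either strand, TGATNNAT (the joint Pbx-Hox motif), TGACAG (Meis), TTTATNG (Cdx, the caudal factors) and CCAAT (NF-Y), and no matches of different motifs overlapped in these windows. Hoxa2 lies at chr6:52164832-52165081 (minus), Hoxb8 at chr11:96281655-96281904 (plus), Hoxd8 at chr2:74704365-74704614 (plus) and a Hoxa10 window at chr6:52234940-52235189 (minus). Hoxa10 has a further window, at chr6:52240855-52241104 (minus), which held no match of the 4 motifs and is not shown.
Hoxa2: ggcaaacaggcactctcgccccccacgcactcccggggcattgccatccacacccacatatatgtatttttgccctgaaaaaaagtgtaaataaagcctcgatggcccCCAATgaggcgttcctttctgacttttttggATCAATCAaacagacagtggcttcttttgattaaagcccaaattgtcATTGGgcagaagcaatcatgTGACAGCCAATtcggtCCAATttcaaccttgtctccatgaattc
Hoxb8: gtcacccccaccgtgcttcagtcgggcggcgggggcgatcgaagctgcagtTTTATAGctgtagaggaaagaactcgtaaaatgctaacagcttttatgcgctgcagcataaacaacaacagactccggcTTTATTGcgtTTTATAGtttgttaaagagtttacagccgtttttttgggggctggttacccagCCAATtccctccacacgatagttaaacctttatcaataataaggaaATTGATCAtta
Hoxd8: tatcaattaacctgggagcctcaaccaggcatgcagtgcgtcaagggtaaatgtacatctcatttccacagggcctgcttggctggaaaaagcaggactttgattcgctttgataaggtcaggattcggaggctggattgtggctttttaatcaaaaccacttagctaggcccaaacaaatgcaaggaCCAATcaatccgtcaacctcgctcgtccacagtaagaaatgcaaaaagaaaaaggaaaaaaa
Hoxa10: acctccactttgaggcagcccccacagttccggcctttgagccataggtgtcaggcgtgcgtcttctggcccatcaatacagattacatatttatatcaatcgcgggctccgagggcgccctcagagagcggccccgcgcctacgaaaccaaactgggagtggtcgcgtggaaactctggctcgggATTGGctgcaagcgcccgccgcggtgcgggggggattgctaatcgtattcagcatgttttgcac
The Hoxa2 window held 1 TGATNNAT, 1 TGACAG and 4 CCAAT matches. The Hoxb8 window held 3 TTTATNG matches, 1 TGATNNAT and 1 CCAAT, and the Hoxd8 window and the Hoxa10 window shown held 1 CCAAT each. Across all 24 Hox windows, TGATNNAT was present in 4 (16.7%), against 7.68% of 32851 windows of the same length. CCAAT was present in 14 (58.3%) against 33.9%, TGACAG in 2 against 15.9% and TTTATNG in 2 against 9.81%. A match is a stretch of letters in these windows and says nothing of binding.

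Hox RNA made up 12468 UMIs in WT day 25, 9117 in KO day 25, 1167 in WT day 35 and 3113 in KO day 35. As counts per 1e6 UMIs (CPM) that was 171 (95% interval 168 to 174), 108 (106 to 110), 37.8 (35.7 to 40.0) and 81.3 (78.4 to 84.2). No pair of these intervals overlapped, and the summed level was highest in WT and lowest in WT, on day 25 and day 35 respectively, with both KO libraries between. Of the 39 genes, 38 had a UMI in each library except WT day 35, where 31 had one. Hoxc12, which acts in the hindmost trunk and the hair follicle, had 0 UMIs in all 4 libraries, which allows up to 0.0505, 0.0437, 0.119 and 0.0963 CPM. Over all kept cells 29 genes had at least 100 UMIs, up to 1937, and 9 others had between 10 and 39. Most members were thus rare transcripts, and the values of a single gene in a small cell group rest on few molecules.

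A Hox UMI was found in 44.9%, 38.5%, 10.6% and 24.7% of cells. Since the libraries differ in depth, each cell was also reduced at random to 2000 UMIs, which left out 707 shallower WT day 35 cells. The shares were then 21.9% (95% binomial interval 21.1 to 22.8), 16.2% (15.5 to 16.9), 6.58% (6.03 to 7.17) and 13.9% (13.1 to 14.7). The order of the 4 libraries was the same as in the summed level. The reference cell groups set beside these shares were pluripotent-like cells, found mainly in KO day 35, and otic epithelium-like cells. At 2000 UMIs, 2.51% of 319 pluripotent-like KO day 35 cells had a Hox UMI (median depth before reduction 14032), as did 3.59%, 4.35%, 0.929% and 2.05% of otic epithelium-like cells, whose median depth was 8985, 8929, 3867 and 5317. Shares at or below that of pluripotent-like cells, which the otic epithelium-like shares of both day 35 libraries were, are read as background.

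Cells were clustered and named "-like" by fixed marker genes, and the names are rebuilt ones. Neural cells (neuron-, astrocyte-, oligodendrocyte- and Schwann-like) had a higher Hox level than mesenchymal, muscle and epithelial cells at day 25, at 432 CPM (419 to 445) in 1447 WT cells and 148 CPM (140 to 156) in 1296 KO cells. Neural cells of KO day 35 held 229.7 CPM (211 to 249) in 452 cells. WT day 35 had 88 neural cells with 7 Hox UMIs, 21.0 CPM (8.44 to 43.3). Muscle cells held 145, 134, 50.3 and 59.8 CPM in WT day 25, KO day 25, WT day 35 and KO day 35. Mesenchymal cells held 137, 82.9, 61.6 and 156 CPM in that order, and were alone among these 4 tissues in having their highest level in KO day 35. Epithelial cells held 101, 83.0, 7.67 and 29.6 CPM. Cycling cells, which were named by division genes and put in no tissue, held 184.5, 171, 102 and 128 CPM, above the neural level in KO day 25. Cells of an inflammatory state, likewise outside the tissues, held 49.3, 55.9, 38.7 and 77 CPM. The unnamed clusters 4 (leading genes Fgf21 and Hspa5) and 21 (Gm6619 and 5430401F13Rik) were in no tissue either and together held 30.8, 24.5, 17 and 45.2 CPM. Both of these classes also had their highest level in KO day 35. Within WT day 25 the neural level stood 1.75 log2 units (1.70 to 1.81) above that of all other cells, against 0.52 (0.44 to 0.61) in KO day 25 and 1.70 (1.57 to 1.83) in KO day 35.

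**Figure D1:**
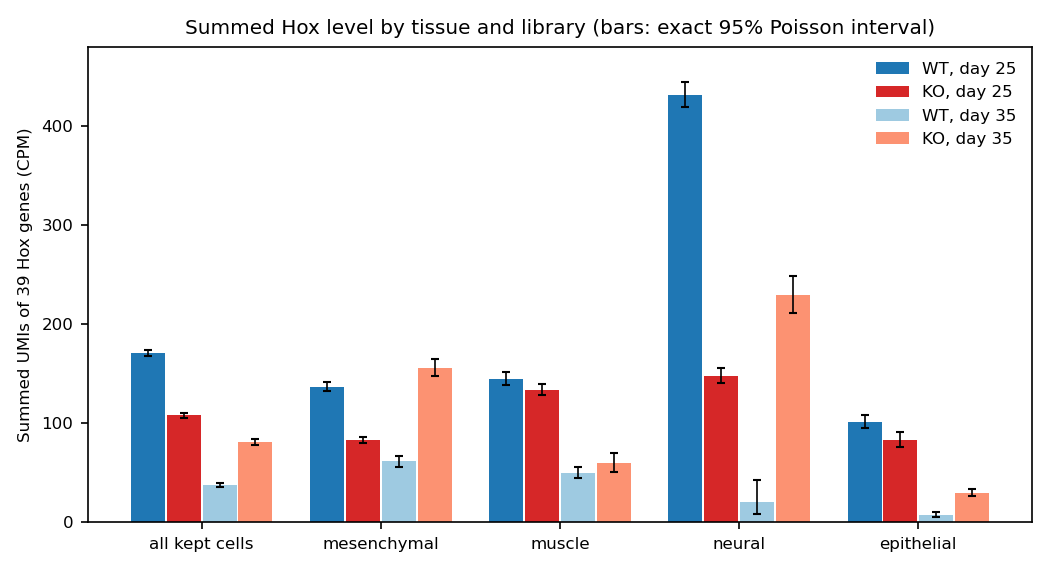
Summed Hox level in CPM by tissue and library, with 95% Poisson intervals that cover counting error alone. Neural cells of WT day 25 stand highest at 432 CPM, and mesenchymal cells of KO day 35 reach 156 CPM against 61.6 CPM in WT day 35.

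Single genes were compared between a tissue and all other cells of the same library, counting a gene as past the threshold when it differed more than 2-fold and had at least 20 UMIs in the 2 sums together. In WT day 25, 18 of 31 Hox genes were past 2-fold higher in neural cells (17.2% of all genes were) and 2 lower (15.4%). In KO day 25, 9 of 29 were higher (16.8%) and 7 lower (13.5%), and in KO day 35, 18 of 28 were higher (13.8%) and 0 lower (12.7%). Of the 29 Hox genes measured in both day 25 libraries, 9 were past 2-fold higher in neural cells of both (13.5% of all genes), 4 in muscle (4.47%), 2 in epithelial (9.80%) and 0 in mesenchymal cells (5.93%). Past 2-fold lower in both were 2 in neural cells (10.5%), 7 in muscle (28%), 12 in epithelial (11.1%) and 13 in mesenchymal cells (17.9%). The muscle counts of lower genes and the epithelial counts of higher ones were thus near the background. For muscle the counts were 5 of 31 higher (5.31%) and 16 lower (34.1%) in WT day 25 and 9 of 29 higher (5.34%) and 8 lower (32.8%) in KO day 25. On day 35 they were 8 of 17 higher (6.53%) and 7 lower (28.2%) in WT, and 5 of 28 higher (5.68%) and 11 lower (27.4%) in KO. Mesenchymal cells had few higher genes on day 25, with 1 of 31 (7.38%) in WT and 1 of 29 (7.88%) in KO against 18 lower in each (21.8% and 22.3%). On day 35 they had 9 of 17 higher (11.7%) and 3 lower (16.1%) in WT, and 15 of 28 higher (10.7%) and 1 lower (22.5%) in KO. Epithelial cells had 2 of 31 higher (12.4%) and 15 lower (16%) in WT day 25 and 3 of 29 higher (13.8%) and 15 lower (14.5%) in KO day 25. None was higher in them on day 35 (14.5% in WT, 13.8% in KO), and 16 of 17 were lower in WT (14.1%) and 23 of 28 in KO (20.5%). The 88 neural cells of WT day 35 had 0 of 17 on either side (12.8% higher, 9.94% lower). All of the 17 except Hoxa3, which had 1 UMI, were at 0 UMIs in these cells. At this depth none of those at 0 could be called in either direction. The tissue classes were built from the same cells, so these contrasts describe where the RNA lay.

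Low-numbered genes led the neural cells. Hoxa2 and Hoxb2, whose anterior limits lie in the hindbrain, held 43.1 and 39.2 CPM in neural cells of WT day 25, 22.6 and 16.2 CPM in KO day 25, 0 UMIs each in WT day 35, and 13.8 and 26.8 CPM in KO day 35. Both were thus seen in neural cells of 3 libraries. Hoxc4, a gene of the hindbrain-spinal cord border, held 88.8 CPM (300 UMIs in 107 of 544 cells) in neuron-like cells of WT day 25 and 16.8 CPM (38 UMIs in 17 of 301 cells) in KO day 25. Hoxb5, which is active in the caudal hindbrain and in vagal neural crest, held 76.4 CPM (258 of the 390 UMIs in that library) and 27.0 CPM (61 UMIs) in the same cells. The 2 intervals did not overlap for either gene, but they treat UMIs as independent and do not cover the uneven spread of UMIs over cells. Day 35 gave 5 neuron-like cells in WT and 23 in KO, too few for levels. In astrocyte-like cells, Hoxa2 held 43.0 CPM in WT day 25, 27.7 CPM in KO day 25 and 17.7 CPM in KO day 35, and 0 UMIs in the 12 cells of WT day 35. Hoxb9, a thoracic-level gene, held 11.9, 8.33, 10.8 and 10.00 CPM in Schwann-like cells of the 4 libraries. Those 4 values rest on 9, 24, 2 and 3 UMIs, and their intervals overlapped.

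Muscle cells had a different set, with middle-numbered genes in front. Hoxd8, a trunk gene, held 23.6 CPM (20.1 to 27.6) in myotube-like cells of WT day 25, 20.1 (16.6 to 24.1) in KO day 25, 12.5 (9.22 to 16.5) in WT day 35 and 7.13 (3.42 to 13.1) in KO day 35. Its myotube level was lower at day 35 in both lines, with intervals apart between the days. Hoxa7, of the same stretch of the axis, held 28.2, 20.9, 3.81 and 7.85 CPM in the same cells, and the neighbour of Hoxd8, Hoxd9, held 12.3, 14.5, 7.12 and 2.14 CPM. Hoxd10 and Hoxd11, which pattern the lumbar trunk and the limb, separated the lines in muscle at day 25. Hoxd11 had 2 UMIs in WT muscle cells and 66 in KO muscle cells (0.148 and 4.18 CPM), a log2 ratio of 4.82 (2.91 to 7.89). Hoxd10 had 3 and 45 UMIs, a log2 ratio of 3.68 (2.04 to 6.01). The KO UMIs of Hoxd11 lay in myoblast-like (31 UMIs in 29 cells), progenitor-like (23 in 21) and myotube-like cells (12 in 10), while WT myoblast- and progenitor-like cells had 0. Cycling cells of day 25, which are put in no tissue, had 3 and 43 UMIs of Hoxd11 and 1 and 23 of Hoxd10 in WT and KO. Of these, cycling cluster 17 held 0 and 41 of Hoxd11 and 1 and 22 of Hoxd10. Cycling cluster 5 held 3 and 2 of Hoxd11 and 0 and 1 of Hoxd10. Which tissue the cells of cluster 17 belong to was not tested. Neural cells of day 25 went the other way, with 17 and 5 UMIs of Hoxd11 and 15 and 8 of Hoxd10. In muscle of day 35, Hoxd11 had 0 UMIs in both lines and Hoxd10 had 2 in WT and 4 in KO.

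High-numbered genes stood out in some mesenchymal clusters. Hoxa10, known from hindlimb, lumbar trunk and the female reproductive tract, held 64.5 CPM (55.0 to 75.3) in the Mfap5-Cilp fibroblast-like cluster of WT day 25, 13.3 (9.73 to 17.7) in KO day 25, 12.1 (7.90 to 17.7) in WT day 35 and 43.7 (36.9 to 51.4) in KO day 35. WT day 25 and KO day 35 were thus the high libraries, with intervals apart from the other two. Hoxc10, a lumbar and hindlimb gene, held 34.5, 13.6, 6.97 and 22.7 CPM there, and Hoxa11, which patterns the forearm and lower leg, held 9.62, 2.02, 0.465 and 8.67 CPM, in the same order of libraries. In the Agtr2 fibroblast-like cluster, Hoxa10 stood at 10.2 and 7.34 CPM on day 25 and 45.8 and 37.1 CPM on day 35 in WT and KO. Its intervals lay apart between the days and overlapped between the lines. Fibrocyte-like cells, named from spiral ligament markers such as Otos, held 28.6, 57.8, 21.9 and 59.2 CPM of summed Hox RNA. A single cell held 20 of the 101 Hox UMIs of fibrocyte-like cells of WT day 25, and without it the level was 23.0 CPM.

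Epithelial cells held little Hox RNA apart from keratinocyte-like ones. Hoxc13, a gene of hair and nail keratinocytes, held 27.4 CPM (22.8 to 32.7) in keratinocyte-like cells of WT day 25 and 60.9 CPM (52.1 to 70.9) in KO day 25. These cells carried 122 of the library's 135 Hoxc13 UMIs in WT and 168 of 185 in KO. Over the whole day 25 library Hoxc13 was found in 47 cells in WT and 78 in KO. Both levels thus rest on a minority of the keratinocyte-like cells. On day 35 keratinocyte-like cells carried 0, with upper limits of 10.4 and 5.17 CPM in WT and KO. Keratinocyte-like cells held 149, 139, 25.5 and 129 CPM of summed Hox RNA, so the sum in KO did not differ between the days as Hoxc13 did. Otic epithelium-like cells, the target tissue of the culture, held 19.9, 19.5, 6.36 and 12.9 CPM, lower than keratinocyte-like cells in every library. Hair cell-like cells had a Hox UMI, at 2000 UMIs per cell, in 1 of 20, 0 of 10, 0 of 57 and 1 of 35 cells. The upper 95% binomial limits of 24.9%, 30.9%, 6.27% and 14.9% lie above the otic epithelium-like shares, so these few cells cannot tell Hox expression from background. In the remaining epithelial cluster of KO day 35, 1 cell held 38 of 87 Hox UMIs, and the level was 68.1 CPM with it and 39.6 CPM without it.

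Against WT, the KO library of day 25 had less Hox RNA and that of day 35 more. The log2 ratio of the sums was -0.66 (-0.70 to -0.62) on day 25 and 1.10 (1.01 to 1.20) on day 35. On day 25, 12 of 33 measured Hox genes were past 2-fold lower in KO (5.06% of all genes) and 2 past 2-fold higher (2.67%), and the median Hox log2 ratio was -0.66, against -0.04 over all 16984 genes measured. On day 35, 17 of 29 were past 2-fold higher (10.3%) and 0 past 2-fold lower (3.05%), with a median of 1.24 against 0.23 over 15843 genes. With cells of at least 1000 genes and at most 5% mitochondrial UMIs, 10 genes instead of 17 were past 2-fold higher and the ratio of the sums was 0.88. The share of all genes past 2-fold in those cells is not given here. Of the 28 genes measured on both days, 22 were lower in KO on day 25 and higher on day 35, by sign alone. The reverse held for 1, while 3 were higher on both days and 2 lower on both. Among the 22, 19 had intervals that left out 0 on both days. The same count over all genes is not given here. Each day has its own pair of libraries, and whether the 2 ratios differ was not tested.

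Hoxb5 had the lowest ratio on day 25. It had 390 UMIs (5.34 CPM) in WT and 120 (1.42 CPM) in KO, a log2 ratio of -1.91 (-2.22 to -1.61). On day 35 it had 18 and 44 UMIs. Hoxb4 and Hoxa5, both of the hindbrain-neck border, followed, with 739 and 356 UMIs (-1.26, -1.45 to -1.08) and 654 and 320 UMIs (-1.24, -1.44 to -1.05). Hoxb9 had 146 and 61 UMIs (-1.47) and Hoxc5, a cervical gene that overlaps Hoxc10 in the annotation, 330 and 162 (-1.24). Genes of the Hoxb cluster with numbers 4 to 9 were all 6 past 2-fold lower. In the other direction stood Hoxd11, at 51 and 136 UMIs (1.21, 0.73 to 1.70), and Hoxd10, at 40 and 94 UMIs (1.02, 0.47 to 1.59). Of those, muscle cells held 2 and 66 UMIs of Hoxd11 and 3 and 45 of Hoxd10. Cycling cells held 3 and 43 of Hoxd11 and 1 and 23 of Hoxd10. Neural cells held more in WT than in KO, at 17 and 5 of Hoxd11 and 15 and 8 of Hoxd10. No other measured gene was past 2-fold higher on day 25.

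On day 35 the leading genes were high-numbered. Hoxc10 had 32 UMIs (1.04 CPM) in WT and 215 (5.61 CPM) in KO, a log2 ratio of 2.44 (1.90 to 3.02). Hoxd11 had 3 and 43 UMIs (3.53, 1.89 to 5.86), Hoxa11 5 and 55 (3.15, 1.84 to 4.83) and Hoxd10 4 and 45 (3.18, 1.73 to 5.12). Hoxa9, a gene of the thoracic-lumbar border, had 49 and 219 UMIs (1.85, 1.40 to 2.33). Hoxd8 had the lowest ratio, -0.67 (-1.07 to -0.26), from 119 and 93 UMIs, and Hoxd9, which lies next to it, had 47 and 44 (-0.41, -1.03 to 0.22). Hoxb13, a tail bud and posterior spinal cord gene named here after its values were seen, had 3 and 3 UMIs on day 25 and 0 and 30 on day 35. With 3 counts put in place of the 0 of WT day 35, its level was 8.06-fold higher in KO. That value follows from the 3 counts and is not a lower limit. Of those 30 UMIs 16 lay in 11 of 296 astrocyte-like cells.

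**Figure D2:**
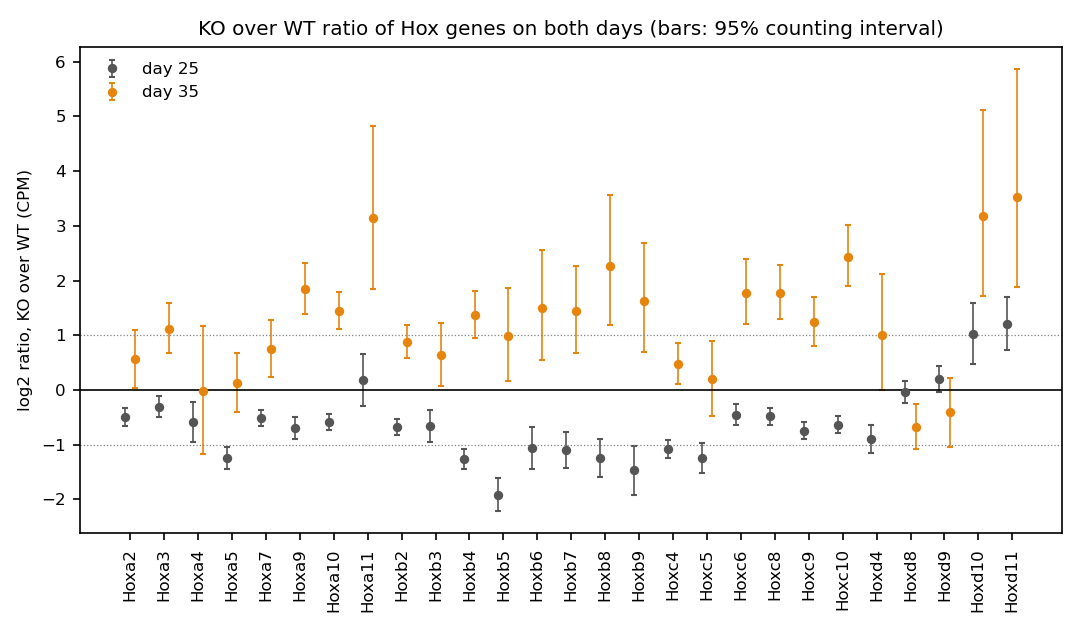
Log2 ratio of KO over WT CPM for 27 of the 28 Hox genes measured on both days, with 95% intervals that cover counting error alone. Day 25 values lie mostly below 0 (Hoxb5 at -1.91) and day 35 values mostly above it (Hoxd11 at 3.53).

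The KO to WT ratio was not equal in the tissues. In neural cells of day 25 the log2 ratio of the sums was -1.54 (-1.63 to -1.46), and 20 of 29 genes were past 2-fold lower (2.60% of all genes) and 0 higher (2.93%). Hoxc5 was lowest there, with 161 UMIs in WT and 14 in KO (-3.38, -4.28 to -2.59). Hoxd4 had 177 and 26 (-2.62), Hoxc4 413 and 61 (-2.61) and Hoxa5 291 and 54 (-2.28). The make-up of the neural class differed, with 133 of 1447 cells in the Schwann-like cluster in WT and 495 of 1296 in KO. By cluster the ratio was -1.44 (-1.58 to -1.30) in neuron-like, -1.33 (-1.48 to -1.19) in astrocyte-like, -0.38 (-0.73 to -0.03) in oligodendrocyte-like and 0.01 (-0.43 to 0.47) in Schwann-like cells. Over the whole class, Hoxa2 (442 and 209 UMIs, -0.93), Hoxb3 (143 and 83, -0.64) and Hoxa9 (109 and 57, -0.79) stayed within 2-fold. In mesenchymal cells the ratio was -0.73 (-0.80 to -0.65), with 10 of 27 lower (2.63%) and 0 higher (1.71%). In muscle it was -0.11 (-0.20 to -0.03), with 2 of 26 lower (2.27%) and 5 higher (1.84%). In epithelial cells it was -0.29 (-0.45 to -0.13), with 5 of 18 lower and 1 higher (2.76% of all genes in either direction). Without neural cells, a comparison added after the data were seen, the sum over the other cells gave -0.31, and 3 genes instead of 12 were past 2-fold lower. The share of all genes past 2-fold in those other cells is not given here, so the 3 have no background beside them.

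On day 35 the mesenchymal ratio was 1.34 (1.19 to 1.50), with 16 of 21 genes past 2-fold higher (3.47%) and 0 lower (2.27%). Hoxd10 and Hoxd11 had 1 UMI each in WT and 27 and 28 in KO (4.55, 1.95 to 9.90, and 4.60, 2.00 to 9.96). Hoxa3, a gene of the third pharyngeal arch, had 7 and 62 UMIs (2.94, 1.81 to 4.31), and Hoxc10 had 22 and 124 (2.29, 1.63 to 3.02). Epithelial cells had a ratio of 1.95 (1.48 to 2.45) from 42 and 275 UMIs, and 3 of 4 measured genes were past 2-fold higher (4.32%) and 0 lower (2.91%). Muscle had 0.25 (-0.04 to 0.54), with 0 of 8 higher (3.28%) and 3 lower (2.54%). Neural cells had 3.45 (2.40 to 4.77) on the 7 WT UMIs, with 3 of 14 higher (19.5%) and 0 lower (4.05%), 11 of the 14 being at 0 in WT. By cluster, the summed level was lower in KO in 15 of 21 clusters on day 25 and higher in 14 of 16 on day 35. With the intervals taken into account, 12 clusters were lower and 2 higher on day 25, and 7 intervals included 0. On day 35, 10 were higher and 0 lower, and 6 intervals included 0. The Mfap5-Cilp fibroblast-like cluster went from -1.36 (-1.53 to -1.18) to 1.60 (1.38 to 1.84). The muscle progenitor-like cluster stood at -0.04 (-0.21 to 0.12) and -0.10 (-0.62 to 0.40).

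The mix of cell types differed between the libraries. Neural cells were 1447 of 9768, 1296 of 11190, 88 of 8166 and 452 of 6729 cells. The cells of the unnamed clusters 4 and 21, which belong to no tissue here, were 296, 110, 2044 and 1118, and pluripotent-like cells numbered 319 in KO day 35, 13 in WT day 25, 2 in KO day 25 and none in WT day 35. With every cluster set to its mean share of the 2 libraries compared, also added after the data were seen, KO over WT was -0.59 on day 25 and 1.08 on day 35. What part the cell mix has in the single genes was not tested.

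Between the days, both lines had less Hox RNA at day 35, WT by more. The log2 ratio of day 35 over day 25 was -2.18 (-2.26 to -2.09) in WT and -0.41 (-0.47 to -0.35) in KO. In WT 30 of 31 genes were past 2-fold lower (14.7% of all genes) and 0 higher (7.96%). Hoxd8 was the exception, at 383 UMIs (5.24 CPM) on day 25 and 119 (3.85 CPM) on day 35. In KO 8 of 31 genes were past 2-fold lower (8.31%) and 2 higher (13%). In mesenchymal cells the lines went opposite ways, with -1.15 (-1.30 to -1.02) in WT and 0.91 in KO. There 17 of 26 genes were past 2-fold lower (9.43%) and 1 higher (8.42%) in WT, and 0 lower (6.39%) and 15 of 26 higher (8.57%) in KO. In muscle both were lower, at -1.53 (-1.71 to -1.35) in WT, with 12 of 19 genes past 2-fold lower (8.97%) and 0 higher (6.61%). The KO value was -1.16 (-1.42 to -0.92), with 13 of 24 lower (7.15%) and 0 higher (5.86%). In neural cells of KO the ratio was 0.63 (0.49 to 0.77), with 10 of 25 genes higher (8.26%) and 0 lower (8.96%). In the few neural cells of WT day 35 the ratio was -4.36 (-5.68 to -3.32), with 7 of 24 genes lower (17.9%), 0 higher (9.89%) and 21 of the 24 at 0 on day 35. Epithelial cells had -3.73 (-4.21 to -3.28) in WT, with 14 of 14 lower (13.4%) and 0 higher (10.0%), and -1.49 (-1.71 to -1.27) in KO, with 7 of 14 lower (9.71%) and 0 higher (9.21%). Different clusters made up the epithelial class on the 2 days. Keratinocyte-like cells numbered 457 on day 25 and 90 on day 35 in WT and 252 and 104 in KO, while otic epithelium-like cells numbered 167 and 679 in WT and 161 and 1071 in KO. Within KO the keratinocyte-like level was 139 CPM (126 to 154) and 129 CPM (104 to 158) on the 2 days and the otic level 19.5 and 12.9 CPM, with overlapping intervals for each cluster. Within WT these levels were 149 and 25.5 CPM and 19.9 and 6.36 CPM, with intervals apart in both clusters. With clusters at their mean share the KO value over all cells was 0.30 instead of -0.41, so its sign was not the same at an equal cell mix. WT cells of day 35 were also the shallowest.

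The distribution over paralog groups gave each tissue its own profile. UMIs are not scaled by gene length and 3′ ends differ in capture, so profiles were compared between samples, not levels between genes. In neural cells groups 1 to 4 made up 51.5% of Hox UMIs in WT day 25, 54.5% in KO day 25 and 47.3% in KO day 35. In mesenchymal cells groups 9 to 13 made up 43.9%, 37.5%, 37.7% and 48.4% in WT day 25, KO day 25, WT day 35 and KO day 35. In WT day 35 groups 1 to 4 made up as much of the mesenchymal Hox UMIs, 38.2% (33.8 to 42.7), and the 2 intervals overlapped. Muscle had its largest share in groups 5 to 8, at 45.2%, 37.3%, 48.5% and 38.6%. In KO day 35 that share (30.7 to 47.1) overlapped the muscle share of groups 1 to 4, 37.2% (29.4 to 45.7). The UMI-weighted mean paralog number was 5.05, 5.03 and 5.69 in neural cells of WT day 25, KO day 25 and KO day 35, against 7.16, 6.81, 6.44 and 7.18 in mesenchymal cells of the 4 libraries. Neural cells thus had a lower mean than mesenchymal cells in each of these 3 libraries. Over all kept cells, groups 9 to 13 made up 28.6%, 33.1%, 26.3% and 39.4%.

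Group 10 (Hoxa10, Hoxc10 and Hoxd10) was the main group of mesenchymal cells in WT day 25 and KO day 35, at 22.4% and 26.0% of Hox UMIs, and 18.9% in KO day 25. It was the largest group in WT day 35 too, with group 9 close behind. There Hoxa10, Hoxc10 and Hoxd10 had 69, 22 and 1 of the 477 mesenchymal Hox UMIs. In neural cells it was 6.26%, 7.37% and 7.38% in WT day 25, KO day 25 and KO day 35. Group 5 was 17% of neural Hox UMIs in WT day 25, 10.4% in KO day 25 and 9.78% in KO day 35, and group 2 was 19.1%, 26.2% and 17.7%. Over the whole neural class, the difference between the lines at day 25 was therefore uneven over the groups. Groups 1 to 4 had a log2 ratio of -1.46 (-1.59 to -1.34), groups 5 to 8 of -1.87 (-2.05 to -1.71) and groups 9 to 13 of -1.23 (-1.44 to -1.03). The make-up of the neural class differed between the lines, as given above, and its part in these ratios was not tested. In mesenchymal cells of day 25 the same 3 ratios were -0.51, -0.62 and -0.95.

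**Figure D3:**
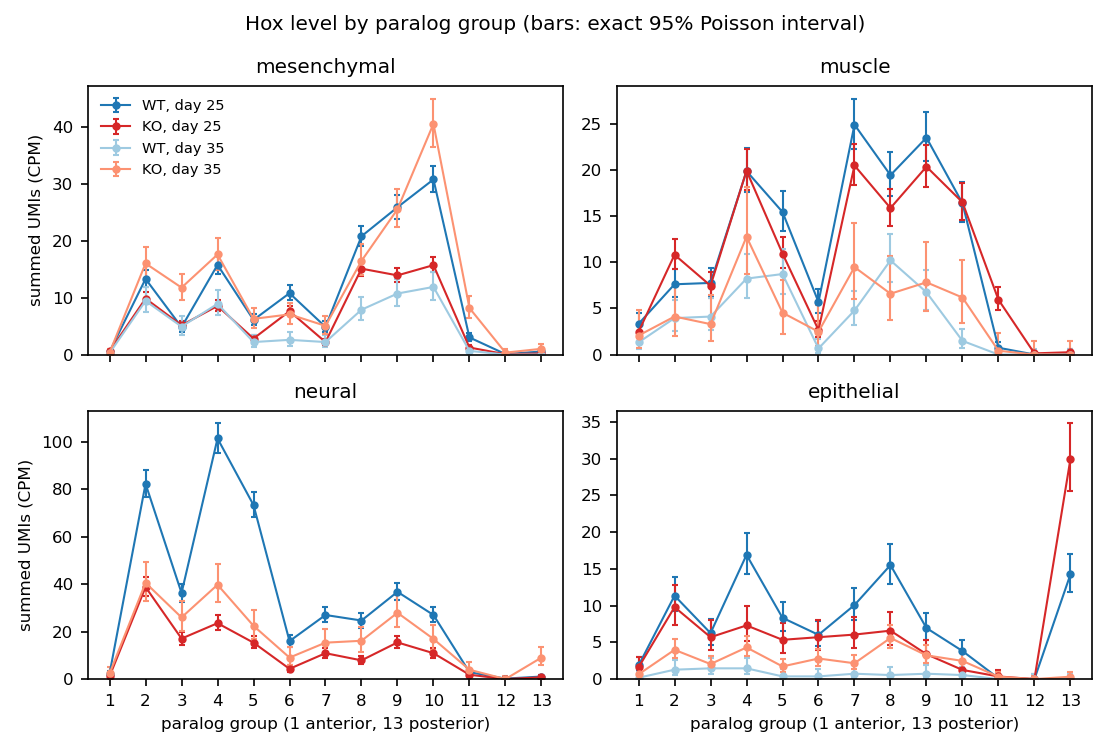
Level of each paralog group in CPM, by tissue and library, with 95% Poisson intervals that cover counting error alone. Mesenchymal cells peak at group 10 in WT day 25 (30.8 CPM), in WT day 35 and in KO day 35 (40.5 CPM). Neural cells of WT day 25 peak at group 4 (101.5 CPM), while neural cells of WT day 35, with 7 Hox UMIs, are not drawn.

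Within neuron-like cells the Hox RNA lay in a minority. In WT day 25, 79 of 544 cells (14.5%) had at least 10 Hox UMIs and held 1550 of the 2226 Hox UMIs, while 241 cells (44.3%) had none. In KO day 25, 10 of 301 cells (3.32%) had at least 10 and held 249 of 548, and 182 cells (60.5%) had none. In WT the median depth was 4441 UMIs in cells with none, 5134 in cells with 1 to 9 and 5103 in cells with 10 or more, and in KO it was 4940, 6602 and 7360. The highest cell of the WT neural class had 66 Hox UMIs. In neural cells of WT day 25, 161 of 242 cells (66.5%) with a UMI of groups 9 to 13 also had one of groups 1 to 5, against 541 of 1205 (44.9%) without, at median depths of 8026 and 5222 UMIs. The part of depth in that difference was not tested.

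Regulators of other axial levels were read in the same neuron-like cells of WT day 25. The 9 hindbrain regulators summed to 196 CPM in cells without a Hox UMI and 199 CPM in those with at least 10. The 14 forebrain and midbrain regulators summed to 112 and 102 CPM, and the 16 trunk and limb regulators to 121 and 148 CPM. These sums differed little between Hox-free and Hox-rich cells. Single genes differed more. Gbx2, of the anterior hindbrain and named after its values were seen, held 6.34 CPM in cells without a Hox UMI and 60.1 CPM in those with at least 10, and the Hox cofactor Meis1 held 45.2 and 113 CPM. In astrocyte-like cells of WT day 25 the forebrain and midbrain sum was 59.2 CPM in cells without a Hox UMI and 25.4 CPM in those with at least 10.

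Over all kept cells the regulator lists were counted with the same 2-fold threshold and the same background shares as above. For KO over WT on day 25, 5 of 12 forebrain and midbrain regulators and 2 of 8 hindbrain regulators were past 2-fold lower and none higher. En1, of the midbrain-hindbrain border, had 749 and 430 UMIs, and Emx2, a cortex gene that is also in the trunk and limb list, had 512 and 260. Of 16 cranial crest and jaw regulators 3 were higher and 2 lower, with Barx1, a jaw and stomach gene, at 412 and 1399 UMIs. Of 15 trunk and limb regulators 3 were lower. The 9 Hox cofactors, which bind with Hox proteins, and the 18 Polycomb and trithorax genes, which hold Hox genes off or on, had none past 2-fold in either direction, with median log2 ratios of -0.24 and 0.01. On day 35 the cofactors again had none, and 4 of 18 Polycomb and trithorax genes were higher and 0 lower. Of 8 forebrain and midbrain regulators measured then, 3 were higher and 2 lower, of 7 hindbrain regulators 2 were higher and 0 lower, of 16 cranial crest and jaw regulators 0 were higher and 2 lower, and of 14 trunk and limb regulators 2 were higher and 1 lower.

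For the caudal and tailbud regulators the background shares were again those given above for KO over WT. On day 25, 0 of 7 measured were past 2-fold higher in KO and 2 lower. Of 7 measured on day 35, 4 were past 2-fold higher and 1 lower. The higher ones included Sall4 (0 and 893 UMIs) and Lin28a (0 and 451), both also genes of pluripotent cells, of which KO day 35 had 319 and WT day 35 none. Gdf11, a secreted factor of the tail bud that sets the trunk-tail transition, had 399, 481, 194 and 281 UMIs (5.46, 5.70, 6.28 and 7.34 CPM) in the 4 libraries. Cdx2 and Cdx4, caudal factors that activate trunk Hox genes, were named after their values were seen. Cdx2 had 19, 1, 0 and 0 UMIs, and Cdx4 9, 6, 6 and 5.

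The RNAs transcribed from within the Hox clusters were read as well, with 8 of 19 symbols on the list found. Hoxb3os had 483, 547, 100 and 146 UMIs in the 4 libraries, and Hoxaas3 had 227, 190, 34 and 83. The day 35 WT value was the lowest of the 4 libraries for both on the CPM scale. For KO over WT, 1 of 6 measured was past 2-fold lower on day 25 and 1 of 5 higher on day 35. A count of 1 gene on each day is too small to set against the background shares given above.

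The genes whose levels were most like the summed Hox level were ranked by Pearson's r over 33 sums of cells, each sum being a cell class of at least 50 cells in 1 library, on the log2(CPM + 10) scale. Among 14016 genes Zfp503, a zinc finger repressor of striatum and limb, came first at r = 0.81, and Meis1 second at 0.78. Capn2, Ap1m1, Hoxaas3, Actr1a, Ndn, Cnih1, Med9 and Prkra followed at 0.75 to 0.72. The sums share libraries and depth, so r is given as a description.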

How the data were processed

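Inner ear organoids of 4 groups, 1 library each, were profiled cell by cell with 10x v2 chemistry, which reads the 3′ end of transcripts, and were mapped to genotype and day by their labels. The deposited values are whole-number UMI counts for each gene in each barcode, without normalization by the authors. Per the submitters' processing notes, the tools were R 3.5.1, Seurat 2.3.1, bcl2fastq and Cell Ranger 2.1.0 and the builds GRCm38 and mm10, with no role named. Neither the strand setting of the counting nor its treatment of ambiguous reads is given there.

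From these counts, barcodes with at least 500 genes and at most 10% mt- UMIs were kept. The kept total was 73025302 UMIs in WT day 25, 84439223 in KO day 25, 30887121 in WT day 35 and 38307020 in KO day 35. Cells of all libraries were clustered together (scanpy 1.11.5, 2000 variable genes, 30 principal components, 20 neighbours, Leiden resolution 1.0), giving 25 clusters. A cluster was named when at least 3 fixed markers of a type stood among its 50 leading genes and at least 2 among its 20. Clusters 0 and 2, by their leading genes Ibsp-Nrn1 and Nppc-Dlk1, were counted as mesenchymal without a finer name. The doublet caller marked 0, 313, 1 and 3 cells in the 4 libraries, under 0.5% in 3 of them, so no cell was removed by it, and removing the highest scores (763, 1002, 533 and 362 cells) was run as an alternative.

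UMIs were summed per library, cell class and cluster and given as counts per 1e6 UMIs (CPM) with exact Poisson intervals (95%). Ratios of 2 sums had exact conditional binomial intervals, and shares of cells Clopper-Pearson intervals. These cover counting error alone. The intervals of levels and ratios treat UMIs as independent and do not cover their uneven spread over cells. With 1 library per group no test was run and no p-value is given. A gene was measured with at least 20 UMIs in the 2 sums, a count of 0 was replaced by 3 counts, and past 2-fold was the rule for a call, over the whole table. The count, ratio and interval steps were tested on simulated data. Hox genes with at least 100 UMIs could be named, in ratios up to 5 in each direction ranked by the interval bound nearest 0, and up to 4 genes of a list by UMIs. Further genes are marked as named after their values were seen. One Hox gene is counted in the sums and is not reported singly here. The Hox genes, lists and markers were chosen with earlier results of these data known. Alternatives were a stricter cell filter, removed doublet scores, Leiden 0.5 and 2.0, CPM averaged over cells, CPM without mt- UMIs, other UMI minimums and other depths of thinning. Scripts used Python 3.11.15, scipy 1.17.1, numpy 2.4.6 and pandas 2.3.3.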

Additional observations from a re-analysis of the deposited data

Results flagged for a closer look

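The summed Hox level of KO over WT pointed in opposite directions on the 2 days in several sets of cells. The log2 ratio was -0.66 on day 25 and 1.10 on day 35 over all kept cells, -0.73 and 1.34 in mesenchymal cells, -1.54 and 3.45 in neural cells, and -0.29 and 1.95 in epithelial cells. The neural value of day 35 rests on 7 Hox UMIs in 88 WT cells. Day 35 over day 25 was likewise opposite in the 2 lines, at -1.15 in WT and 0.91 in KO mesenchymal cells and at -4.36 and 0.63 in neural cells. With 1 library per group, the difference between these ratios was not tested in any of the cases. The WT neural value of -4.36 rests on the same 7 UMIs. The KO neural levels of the 2 days lay closer together with the stricter cell filter, as given below.

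Barcodes removed by the cell filter, which enter none of the comparisons, also held Hox RNA. There were 221 Hox UMIs in 195 removed barcodes of WT day 25 (108 CPM), 143 in 117 of KO day 25 (104 CPM), 98 in 1084 of WT day 35 (20.1 CPM) and 349 in 348 of KO day 35 (158 CPM).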

How the results depend on the processing

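Of 274 recomputed values of 48 results, 215 moved by less than the counting error or 1.5 times, 58 moved by more and 1 changed sign. No paired analysis was possible because each group has 1 library, and leaving out a replicate cannot be done for the same reason. The sign change came from an alternative chosen after seeing the data. With clusters at their mean share of the 2 libraries, day 35 over day 25 in KO was 0.30 (log2) instead of -0.41, that in WT -1.21, and KO over WT on day 25 -0.59. The other alternative chosen then, without neural cells, gave KO over WT -0.31 on day 25, with 3 genes past 2-fold lower, and 0.90 on day 35. Counts of genes past 2-fold under the alternatives are given here and below without the share over all genes.

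The stricter cell filter (1000 genes, 5% mt- UMIs) gave 166 CPM in WT day 25 and 43.5 in WT day 35, neural levels of 410.3, 139 and 156 CPM (WT day 25, KO day 25, KO day 35), 87.0 CPM in mesenchymal and 43.3 in muscle cells of WT day 35, mean paralog numbers of 6.12, 6.20 and 6.82 (WT day 25, WT day 35, KO day 35) and a thinned share of 7.46% in WT day 35. KO over WT on day 35 was then 0.88 with 10 genes higher, WT day 35 over day 25 was -1.94, and 1 gene was higher in KO day 35 over day 25. Removing the highest doublet scores gave 468 CPM in neural cells of WT day 25, 4.49 in epithelial cells of WT day 35 and 105 in KO day 25. Leiden 0.5 gave 92.1 CPM in mesenchymal cells of KO day 25 and 25.5 in epithelial cells of KO day 35, and Leiden 2.0 gave 97.2 and 25.7, with 153 in mesenchymal cells of WT day 25. The count of genes past 2-fold higher in mesenchymal cells of both day 25 libraries was 1 with the stricter filter, with doublet scores removed and with Leiden 2.0, and 3 with CPM averaged over cells.

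CPM averaged over cells gave 182 in WT day 25, 94.3 in KO day 35, and 145, 137 and 475 in mesenchymal, muscle and neural cells of WT day 25, with 92.6 in epithelial cells of KO day 25. KO over WT was then -0.77 (1 gene higher) on day 25 and 1.27 on day 35, and KO day 35 over day 25 was -0.17. Without mt- UMIs the levels were 176 CPM in WT day 25, 111 in KO day 25, 84.4 in KO day 35 and 447 in neural cells of WT day 25. With a minimum of 50 UMIs 0 genes were higher in KO day 35 over day 25, and with 5 UMIs 4 were, with 1 lower in KO over WT on day 35 and 1 higher in WT day 35 over day 25. The share of cells with a Hox UMI, in the order of libraries used throughout, was 13.6%, 8.61%, 3.78% and 7.89% when thinned to 1000 UMIs and 44.9%, 38.5%, 10.6% and 24.7% unthinned. The depth limits single genes in small cell groups, above all in WT day 35.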
